A study of Homo sapiens with 10 samples.

Results

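The S100 proteins are small calcium-binding proteins, and 10 of their genes were followed here in a metastatic human colon cancer line and its organ-selected derivatives: S100A2, S100A4, S100A6, S100A8, S100A9, S100A10, S100A11, S100A13, S100A14 and S100A16. Their measurements are every row of the deposited table whose only listed gene symbol was one of these names, which gave 55 of 65535 rows and 10 of the 4713 genes that have such rows. Each row was read as a probe set covering a part of its gene, with 4 to 12 per member, and no member row listed another gene beside it. S100A11 has 10 pseudogene entries in a RefSeq gene table, so its probes may also report near-identical copies.

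S100 proteins carry paired EF-hand motifs, helix-loop-helix folds that hold a calcium ion, and most act as dimers. Calcium turns out a hydrophobic face through which they bind partners such as annexins, non-muscle myosin and p53. S100A4, also known as metastasin, has been linked to cell motility and spread in several carcinomas, and S100A8 with S100A9 forms calprotectin, the abundant antimicrobial complex of neutrophils and monocytes.

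The arrays form 3 groups, all from SW620, a line established from a lymph node metastasis of a human colon adenocarcinoma. The liver derivatives (3 arrays) and the lung derivatives (3 arrays) are SW620 cells that formed metastases in those organs of balb/c nude mice and were recovered and grown in culture, and the parental SW620 cells (4 arrays) are the line they came from. The labels name no altered gene and no added agent for any group, and all cells were kept in DMEM with fetal bovine serum. The labels call the arrays biological replicates without naming the animals, metastases or cultures behind them, so p-values speak only of the spread between these samples, which may be technical.

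Values are log2 expression levels made with RMA, which is meant to place all arrays on a common distribution. A change is a difference of group means of log2 levels from limma, with the standard error (SE) or the 95% interval (CI), and a probe set or gene was called at a Benjamini-Hochberg adjusted p under 0.05. In such bulk RNA, fewer cells expressing a gene and less RNA per cell cannot be told apart. The first principal component of all tested rows (38.3% of the variance) put the lung arrays at 66.4 to 98.2 and parental array 4 at 40.7, while the liver arrays scored -39.1 to -37.3 and the other parental arrays -63.5 to -47.6. The arrays on the positive side are named set B and the other 6 set A, a split known from the data and not from the labels. A model with an added coefficient for the set gives set-adjusted differences of gene means and probe sets, in which lung arrays face only parental array 4. The simple-epithelial keratins KRT8 and KRT18, which mark the colon line, kept levels of 12.77 ± 0.06 and 11.73 ± 0.04 in liver derivatives, 12.82 ± 0.10 and 11.61 ± 0.13 in lung derivatives and 12.75 ± 0.04 and 11.62 ± 0.12 in parental cells (SD, n = 3, 3 and 4). Both were picked for naming with their values known. Of the 7 colon epithelial markers listed, 4 fell in liver derivatives (EHF, ELF3, TSPAN8 and LGR5) and 3 in lung derivatives (ELF3, TSPAN8 and LGR5), against 7.83% and 30.1% of all genes called, and 0 rose. After set adjustment 4 fell in liver derivatives and 2 in lung derivatives. The list's median difference was -0.47 in liver derivatives and -0.20 in lung derivatives, and its mean log2 level was 9.15 to 9.2 in liver derivatives and 9.22 to 9.29 in lung derivatives, against 9.54 to 9.61 in parental cells. The part of this difference in the S100 values was not tested.

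Differences from parental cells were small for the 10 members in both derivatives, and the other S100 genes are described below. In liver derivatives against parental cells, 0 of the 55 probe sets were called by limma, against 2.2% of all 56949 probe sets tested. At an unadjusted p under 0.05 there were 4 (7.27%, against 12% of all probe sets), 3 of them higher and 1 lower. Limma's trend and robust setting called 1, and the share of all probe sets it called is not given here. Every array of one group lay beyond every array of the other in 10 of the 55 probe sets (8 higher and 2 lower in liver derivatives, 18.2%), against 16.1% of all probe sets. The median difference over the members was 0.01 on the log2 scale, the same as over all probe sets, and 54 of the 55 differences were smaller than 0.5 in size.

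In lung derivatives against parental cells, 3 of the 55 probe sets were called, 2 higher (S100A9 and S100A11) and 1 lower (S100A2), against 13.1% of all probe sets. At an unadjusted p under 0.05 there were 13 (23.6%, against 32% of all probe sets). Without parental array 4, 11 probe sets were called (9 higher and 2 lower). Without parental array 1, 2 or 3 or lung array 1 or 3 only the S100A2 probe set was called. The shares of all probe sets called in these fits are not given here. The arrays of the groups did not overlap in 11 probe sets (8 higher and 3 lower in lung derivatives, 20%), against 23.7% of all probe sets. The median difference was 0.04 for the members and -0.03 for all probe sets, and the median size of a difference was 0.15 for the members and 0.27 for all. After set adjustment, limma called 0 of the 55 probe sets in lung derivatives and 0 in liver derivatives, against 1.12% and 2.57% of all probe sets. In that model 7 of the 55 had an unadjusted p under 0.05 in lung derivatives, against 9085 of all 56949 probe sets. In liver derivatives 5 did, against 7014 of all 56949 probe sets. No member probe set differed by 1 log2 unit or more in any of the 3 contrasts, while 2.19% of all probe sets did so in liver derivatives and 5.77% in lung derivatives.

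**Figure D1:**
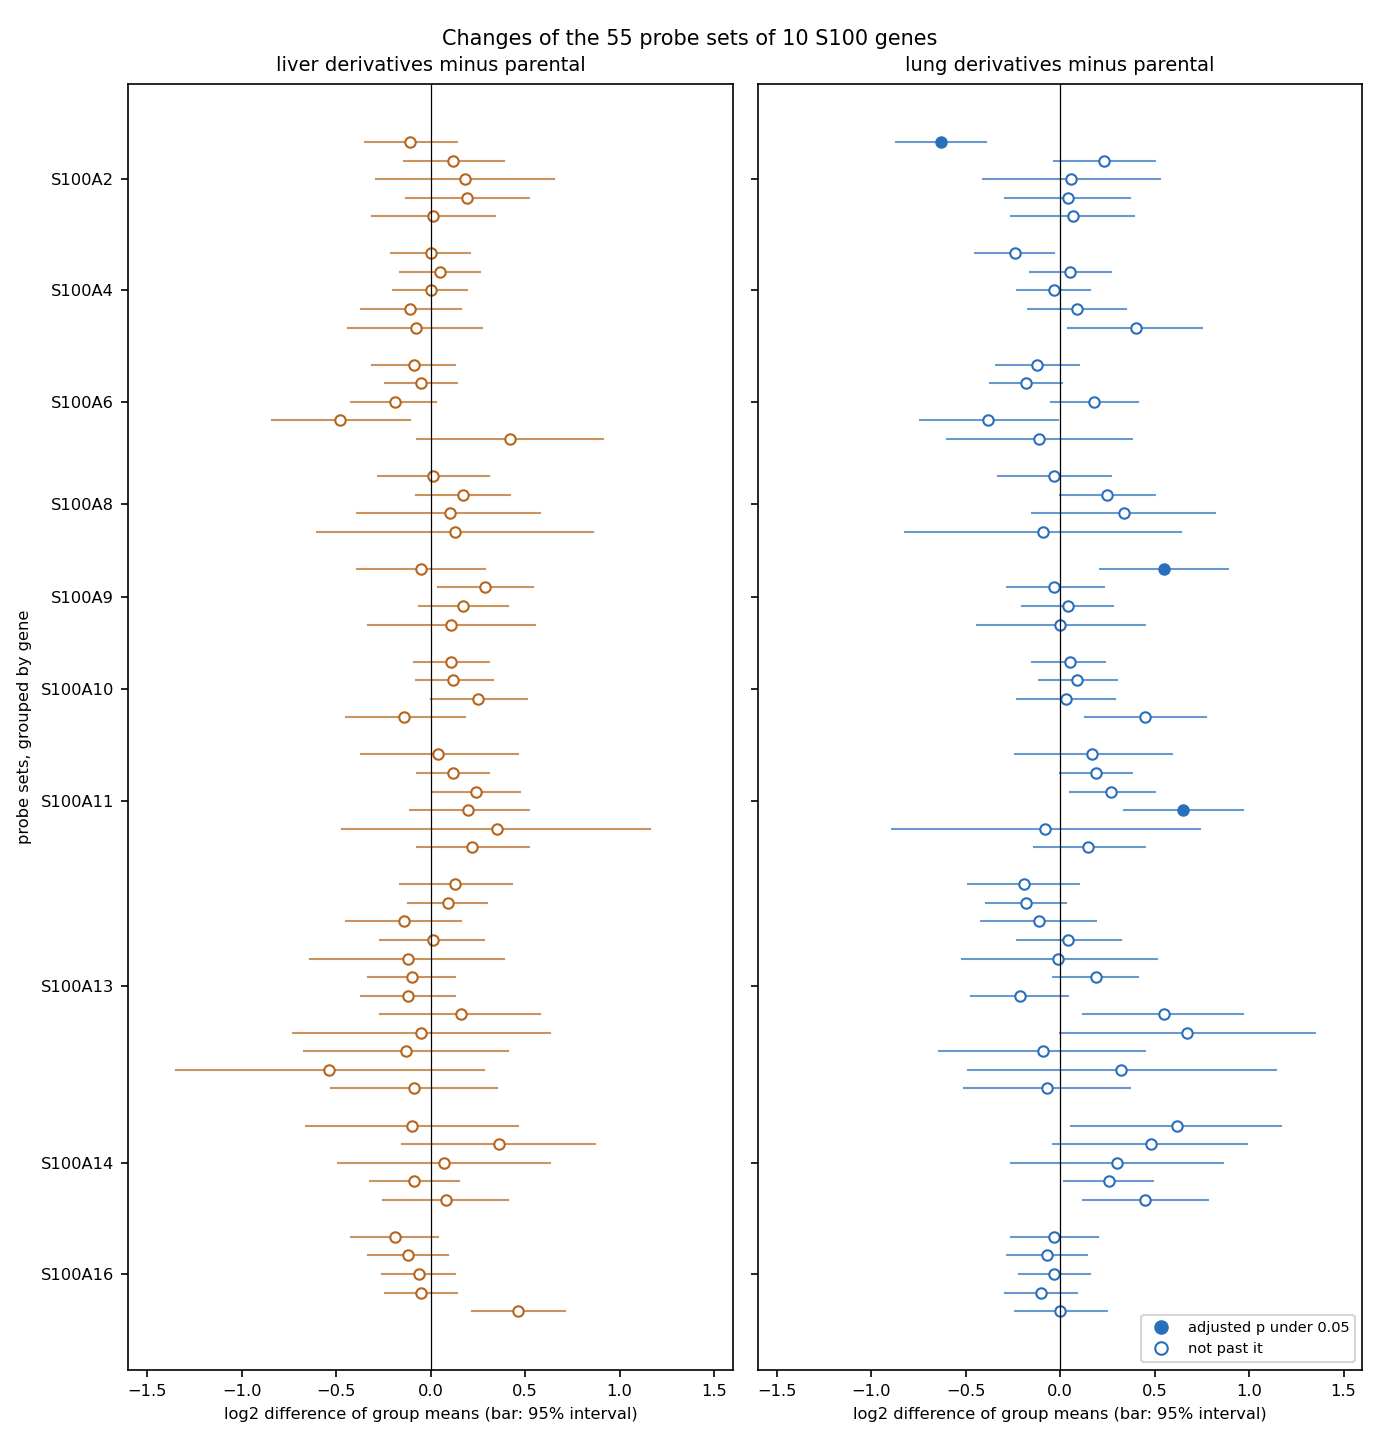
Differences of group means on the log2 scale for the 55 probe sets of the 10 genes, liver derivatives minus parental on the left and lung derivatives minus parental on the right, with 1 point per probe set, 95% intervals as bars and filled points where the limma adjusted p is under 0.05. All points on the left are open, and the 3 filled points on the right belong to S100A2, S100A9 and S100A11.

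Each gene was also taken as the mean of its probe sets. In liver derivatives limma called 0 of the 10 members, against 7.83% of all 4713 genes. There 1 member (S100A11) had an unadjusted p under 0.05, against 18.5% of all genes. In lung derivatives 2 of 10 members were called, S100A11 and S100A14, both higher, against 30.1% of all genes. Between lung and liver derivatives 0 of 10 were called, against 19.9% of all genes. In that contrast 1 member (S100A14) had an unadjusted p under 0.05, against 38.5% of all genes. The median difference of the 10 genes was 0.07 in liver derivatives and 0.10 in lung derivatives, against 0.01 and -0.01 over all genes. The liver and lung comparisons share the 4 parental arrays.

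**Figure D2:**
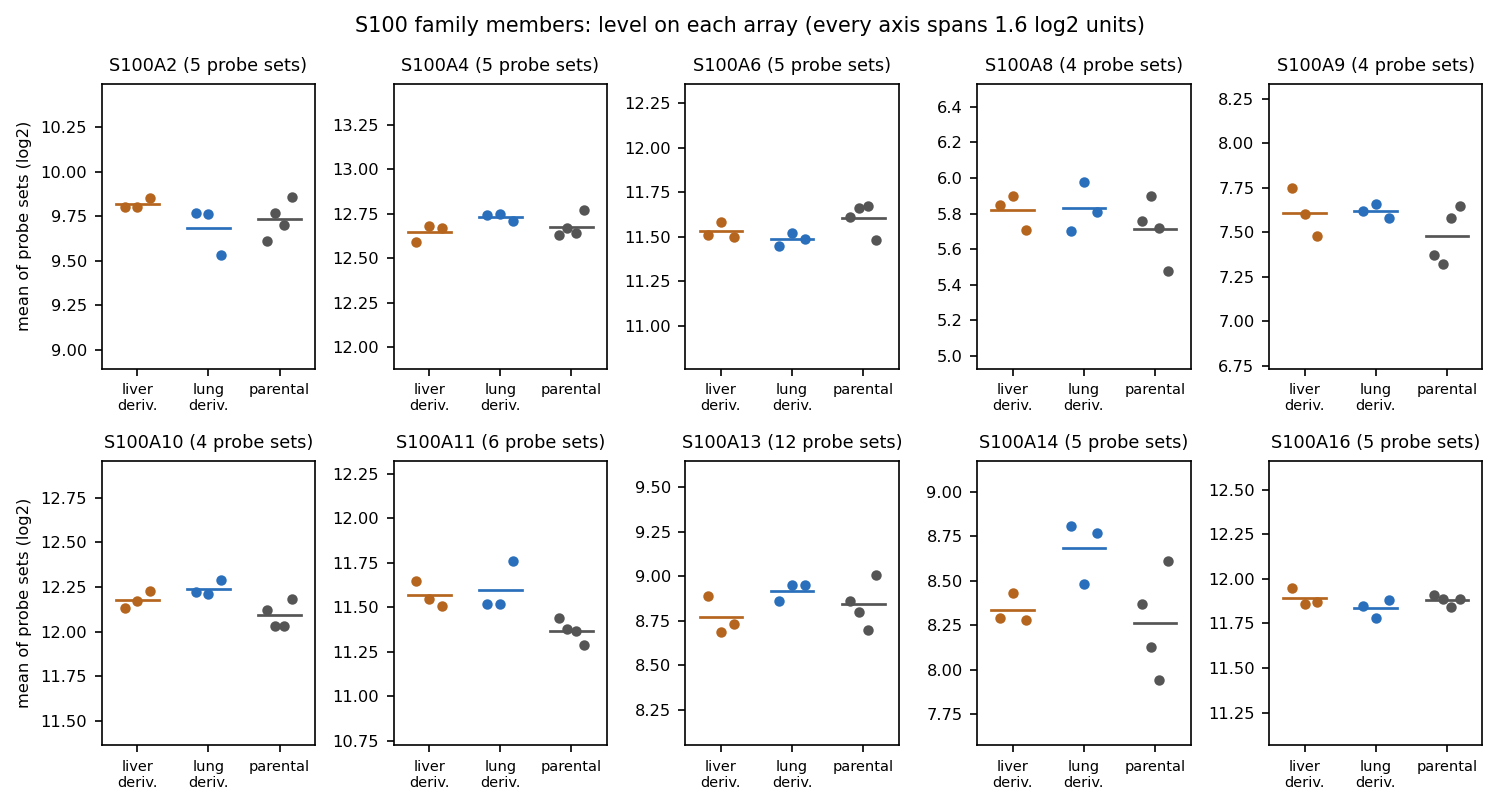
Level of each member on each array, as the mean of its probe sets on the log2 scale, for the liver derivatives (3 arrays), the lung derivatives (3) and the parental cells (4), with points for arrays and lines for group means. Each panel has its own axis of 1.6 log2 units, and the groups overlap in most panels, while all liver and lung points of S100A11 lie above its parental points.

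S100A4, which binds non-muscle myosin IIA and is a known target of beta-catenin signalling in colon cancer cells, had log2 levels of 12.59, 12.68 and 12.67 in liver derivatives and of 12.74, 12.75 and 12.71 in lung derivatives, against 12.63, 12.67, 12.64 and 12.77 in parental cells. Both derivatives overlapped the parental arrays. The liver difference was -0.03 (CI -0.16 to 0.10, adjusted p = 0.872), a fold of 0.981 with an interval of 0.897 to 1.07, and the lung difference was 0.05 (CI -0.07 to 0.18, adjusted p = 0.502), a fold of 1.04 with an interval of 0.949 to 1.13. Set-adjusted, the lung difference was -0.04 (adjusted p = 0.760). The 5 probe sets of S100A4 differed in sign in lung derivatives. In probe set 7920272 the lung arrays read 13.31, 13.32 and 13.35, all below the parental readings of 13.70, 13.53, 13.60 and 13.44 (-0.24, adjusted p = 0.111, set-adjusted -0.11). In probe set 7920276 the lung arrays read 12.56, 12.39 and 12.52, against 12.06, 11.91, 11.88 and 12.51 in parental cells (0.40, adjusted p = 0.119), and the set-adjusted difference was -0.02. Neither probe set was called.

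S100A6, known as calcyclin, binds CACYBP and annexins and is common in proliferating cells. Its log2 levels were 11.51, 11.58 and 11.50 in liver derivatives and 11.45, 11.52 and 11.49 in lung derivatives, against 11.61, 11.66, 11.67 and 11.48 in parental cells. Parental arrays 1 to 3 lay above every derivative array and parental array 4 did not. The differences were -0.08 in liver derivatives (CI -0.22 to 0.06, adjusted p = 0.597) and -0.12 in lung derivatives (CI -0.26 to 0.02, adjusted p = 0.169). Without parental array 4 the lung difference was called (-0.16, adjusted p = 0.0332), and set-adjusted it was 0.00 (adjusted p = 0.980). Its 5 probe sets ranged from -0.48 to 0.42 in liver derivatives and from -0.38 to 0.18 in lung derivatives, and 0 of them were called, with 1 at an unadjusted p under 0.05 in each.

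S100A10 and S100A11 bind annexins. S100A10, also called p11, is locked in the open shape without calcium and joins annexin A2 in a complex that binds plasminogen at the cell surface. Its log2 levels were 12.13, 12.17 and 12.23 in liver derivatives and 12.22, 12.21 and 12.29 in lung derivatives, against 12.12, 12.03, 12.03 and 12.18 in parental cells. All lung arrays lay above all parental arrays, but the lung difference of 0.15 (CI 0.02 to 0.29) did not pass the test (adjusted p = 0.0795). It passed without parental array 4 (0.18, adjusted p = 0.0249), after median centring (0.20, adjusted p = 0.0325) and after quantile normalization (0.18, adjusted p = 0.0456), and the set-adjusted difference was 0.06 (adjusted p = 0.659). The liver difference was 0.09 (CI -0.05 to 0.22, adjusted p = 0.536). The lung difference passed under 3 of the 9 other settings in all, and did not pass without any 1 array other than parental array 4. Probe set 7920127 differed by 0.45 in lung derivatives, and the other probe sets of S100A10 by 0.03 to 0.09.

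S100A11, or calgizzarin, a partner of annexin A1 and annexin A2, had log2 levels of 11.65, 11.55 and 11.51 in liver derivatives and of 11.52, 11.52 and 11.76 in lung derivatives, against 11.44, 11.38, 11.37 and 11.29 in parental cells. Every derivative array lay above every parental array. In lung derivatives the gene rose by 0.23 (SE 0.07, CI 0.07 to 0.39, adjusted p = 0.0390), which is 1.17-fold. In liver derivatives the difference was 0.20 (SE 0.07, CI 0.03 to 0.36), which is 1.15-fold and did not pass the test (adjusted p = 0.168). The lung difference against parental array 4 alone was 0.31, with a lowest probe set value of -0.19 (7920129). The largest values were 0.93 (7920133) and 0.52 (7920134), where that array read 9.40 and 10.88, below all other parental arrays. Against all parental arrays the lung difference of 7920133 was -0.08. The lung call was kept without liver array 1 or lung array 2 and lost without any of the other 8 arrays, with differences from 0.15 to 0.27 and adjusted p-values up to 0.140.

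Of the 6 probe sets of S100A11, 6 were above parental in liver derivatives and 5 in lung derivatives, and only 7920132 was called. That probe set read 11.93, 11.90 and 11.67 in liver derivatives and 12.28, 12.25 and 12.32 in lung derivatives, against 11.43, 11.52, 11.58 and 11.99 in parental cells. Parental array 4 lay nearest to the lung arrays. The lung difference was 0.65 (SE 0.14, adjusted p = 0.0221) and 0.30 after set adjustment (adjusted p = 0.350), and it was called without 5 of the 10 arrays. The genes whose means followed S100A11 most closely over the 10 arrays were C1R (Pearson r = 0.955), CNKSR1 (0.943) and AS3MT (0.927), a description over arrays that share groups and array sets.

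S100A14 is an epithelial member that signals through the receptor RAGE when outside the cell. Its log2 levels were 8.29, 8.43 and 8.28 in liver derivatives and 8.81, 8.48 and 8.77 in lung derivatives, against 8.37, 8.13, 7.94 and 8.61 in parental cells. Lung arrays 1 and 3 lay above all parental arrays, and lung array 2 lay below parental array 4. The gene rose by 0.42 in lung derivatives (SE 0.14, CI 0.11 to 0.73, adjusted p = 0.0434), which is 1.34-fold, the largest difference among the 10 gene means. The set-adjusted difference was 0.08 (adjusted p = 0.807). In liver derivatives it was 0.06 (CI -0.24 to 0.37, adjusted p = 0.874), and between lung and liver derivatives 0.36 (CI 0.03 to 0.69, adjusted p = 0.107), with every lung array above every liver array and a call without parental array 4 (adjusted p = 0.042).

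All 5 probe sets of S100A14 were above parental in lung derivatives, by 0.26 to 0.62, and 0 were called, with 3 at an unadjusted p under 0.05. The call on the gene mean was kept without parental array 4 or lung array 2 and lost without any of the other 8 arrays, with differences from 0.31 to 0.54 and adjusted p-values from 0.00554 to 0.145. S100A14 also varied most among the members: its SD over the 10 arrays was 0.27 on the log2 scale, at percentile 88 of all genes. The SDs of the other 9 members ran from 0.04 for S100A16 and 0.06 for S100A4 (percentiles 0.7 and 2.5) to 0.14 for S100A8 and S100A11, against a median of 0.15 over all genes. The genes most like S100A14 over the 10 arrays were MTMR2 (Pearson r = 0.955), LEPROT (0.947) and TAS2R13 (0.936).

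S100A2, a keratinocyte and basal-cell member that binds p53, had gene-mean log2 levels of 9.80, 9.80 and 9.85 in liver derivatives and of 9.77, 9.76 and 9.53 in lung derivatives, against 9.61, 9.77, 9.70 and 9.86 in parental cells. These groups overlapped except lung and liver derivatives, and no difference was called (0.08 in liver derivatives, adjusted p = 0.672, and -0.05 in lung derivatives, adjusted p = 0.676, set-adjusted -0.17). A single probe set behaved otherwise. Probe set 7920286 read 7.72, 7.74 and 7.89 in liver derivatives and 7.35, 7.20 and 7.22 in lung derivatives, against 8.0, 7.77, 7.75 and 8.02 in parental cells. All lung arrays lay below all others.

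The lung difference of this probe set was -0.63 (SE 0.11, adjusted p = 0.0101). It was called without each of the 10 arrays in turn, with adjusted p-values from 0.00555 to 0.0335, and the set-adjusted difference was -0.77 (adjusted p = 0.0564). The liver difference was -0.11 (adjusted p = 0.775). The other 4 probe sets of S100A2 differed by 0.04 to 0.23 in lung derivatives, all positive, and were not called. The fall was thus measured by 1 probe set, the dimmest of the gene. Its mean over the 10 arrays was 7.67 (percentile 34.3 of all probe sets), against 12.05, 9.87, 10.26 and 8.88 for the other 4.

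S100A16, a widely expressed and strongly conserved member, had log2 levels of 11.95, 11.86 and 11.87 in liver derivatives and of 11.85, 11.78 and 11.88 in lung derivatives, against 11.91, 11.89, 11.84 and 11.89 in parental cells. The differences were 0.01 in liver derivatives (CI -0.11 to 0.13) and -0.05 in lung derivatives (CI -0.17 to 0.08, set-adjusted -0.05). Probe set 7920296 had the smallest adjusted p of any member in liver derivatives: it read 10.67, 10.46 and 10.45 there and 10.11, 10.05 and 10.03 in lung derivatives, against 10.17, 10.16, 10.06 and 9.86 in parental cells. All liver arrays lay above all others, and the liver difference of 0.46 (SE 0.11) did not pass (adjusted p = 0.0732), nor did the set-adjusted difference of 0.40 (adjusted p = 0.0768). The other 4 probe sets of S100A16 differed by -0.19 to -0.05 in liver derivatives.

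S100A13 takes part in the release of FGF1 by a route outside the secretory pathway. Its log2 levels, over 12 probe sets, were 8.89, 8.69 and 8.73 in liver derivatives and 8.86, 8.95 and 8.95 in lung derivatives, against 8.86, 8.80, 8.70 and 9.01 in parental cells. The groups overlapped, with differences of -0.08 in liver derivatives (CI -0.26 to 0.11) and 0.08 in lung derivatives (CI -0.11 to 0.26, set-adjusted -0.10). Its probe sets ranged from -0.54 to 0.16 in liver derivatives and from -0.21 to 0.67 in lung derivatives, and 0 of 12 were called in either, with 0 and 1 at an unadjusted p under 0.05.

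The calprotectin genes S100A8 and S100A9 are expressed above all by neutrophils and monocytes. S100A8 had log2 levels of 5.85, 5.90 and 5.71 in liver derivatives and of 5.70, 5.98 and 5.81 in lung derivatives, against 5.76, 5.90, 5.72 and 5.48 in parental cells. All groups overlapped, and its 4 probe sets read between 3.29 and 7.46 on all arrays, where the lower quartile of an array was 6.80 to 6.83. S100A9 had levels of 7.75, 7.60 and 7.48 in liver derivatives and of 7.62, 7.66 and 7.58 in lung derivatives, against 7.37, 7.32, 7.58 and 7.65 in parental cells. The S100A8 differences were 0.10 in liver derivatives (CI -0.12 to 0.33) and 0.12 in lung derivatives (CI -0.11 to 0.34), and those of S100A9 were 0.13 (CI -0.07 to 0.33) and 0.14 (CI -0.06 to 0.34). Set-adjusted, the lung difference was 0.35 for S100A8 (unadjusted p = 0.0177, adjusted p = 0.128) and -0.02 for S100A9 (adjusted p = 0.920).

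Probe set 7905572 of S100A9 was called in lung derivatives. It read 10.22, 10.03 and 10.03 in liver derivatives and 10.70, 10.64 and 10.75 in lung derivatives, against 9.91, 9.93, 10.21 and 10.52 in parental cells, with parental array 4 next to the lung arrays. The lung difference was 0.55 (SE 0.15, adjusted p = 0.0435). Against parental array 4 alone it was 0.18 (adjusted p = 0.617), and the call was lost without any 1 array other than parental array 4. The other 3 probe sets of S100A9 differed by -0.03 to 0.04. Their means over the 10 arrays were 6.27, 7.78 and 5.90, against 10.29 for the called probe set and an array's lower quartile of 6.80 to 6.83. Of 11 leukocyte genes measured, 1 rose in liver derivatives and 5 rose and 1 fell in lung derivatives, against 7.83% and 30.1% of all genes called. After set adjustment only LYZ was called, in each derivative. The list's mean log2 level was 6.42 to 6.44 in liver derivatives and 6.58 to 6.64 in lung derivatives, against 6.28 to 6.44 in parental cells. The lysozyme gene LYZ rose in both, by 0.97 (adjusted p = 0.00163) in liver derivatives and by 1.64 (adjusted p = 5.37e-05) in lung derivatives. PTPRC, the gene of the pan-leukocyte antigen CD45, read 5.06 ± 0.08 in liver derivatives and 5.23 ± 0.03 in lung derivatives, against 5.04 ± 0.07 in parental cells (SD, n = 3, 3 and 4), a scale on which arrays have no 0. PTPRC was called in lung derivatives and not in liver derivatives. The part of other cells in the S100A9 difference was not tested.

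**Figure D3:**
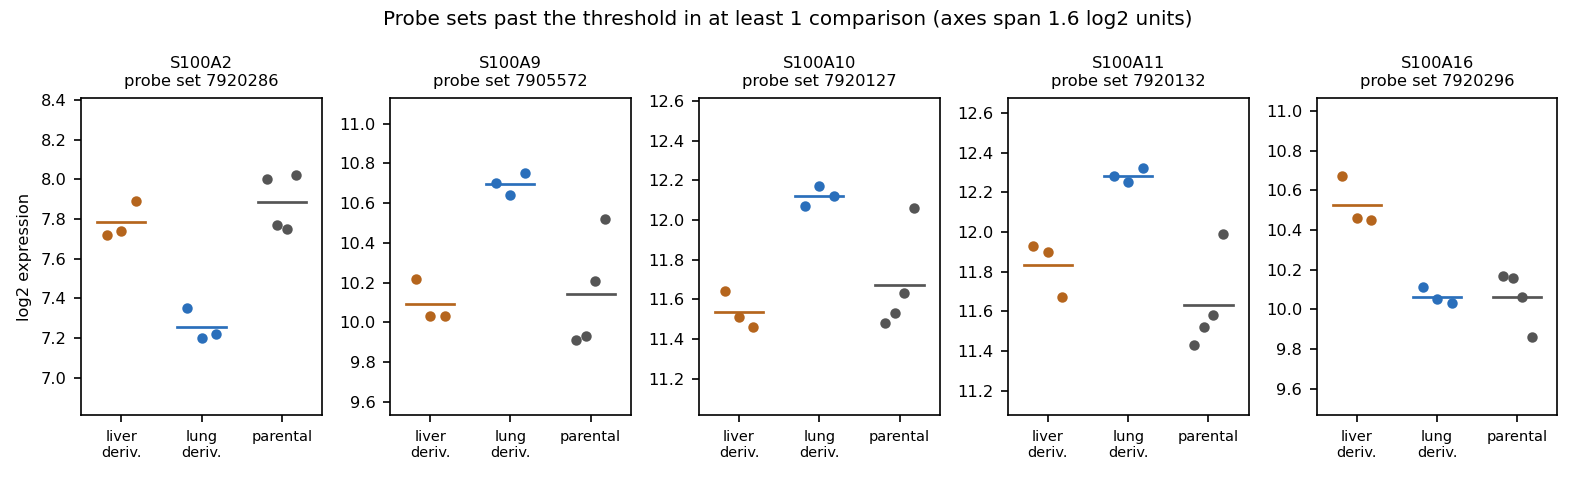
Log2 readings of the 5 member probe sets that were called in at least 1 of the 3 contrasts, for liver derivatives (3 arrays), lung derivatives (3) and parental cells (4), with points for arrays and lines for group means, on axes of 1.6 log2 units. Parental array 4, the rightmost point of each panel, lies nearest the lung arrays for S100A9, S100A10 and S100A11 and away from them for S100A2.

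Between lung and liver derivatives 4 of the 55 probe sets were called, against 12.6% of all probe sets, and the arrays did not overlap in 20 (12 higher and 8 lower in lung derivatives, 36.4%), against 42.3% of all probe sets. Of the 4, 2 were higher and 2 lower, and after quantile normalization 3 were higher and 1 lower. Without parental array 4, 11 were called, without parental array 2 or 3, 1, and without any 1 derivative array, 0. The shares of all probe sets called in these fits are likewise not given. S100A9 probe set 7905572 was higher in lung derivatives by 0.60 (adjusted p = 0.0426) and S100A10 probe set 7920127 by 0.58 (adjusted p = 0.0396). The other probe sets went the other way, by -0.32 to -0.10 for S100A9 and -0.23 to -0.03 for S100A10. The gene means differed by 0.01 and 0.06. S100A2 probe set 7920286 was lower by 0.52 (difference -0.52, adjusted p = 0.0272), as was S100A16 probe set 7920296 (-0.46, adjusted p = 0.0371). The other probe sets differed by -0.15 to 0.11 for S100A2 and -0.05 to 0.16 for S100A16, and the gene means by -0.13 and -0.05. The called S100A10 probe set read 12.07, 12.17 and 12.12 in lung derivatives, against 11.64, 11.51 and 11.46 in liver derivatives, and 11.48, 11.53, 11.63 and 12.06 in parental cells. Its lung difference from parental cells was 0.45 (adjusted p = 0.0664), and 0.06 after set adjustment. All lung arrays are in set B and all liver arrays in set A, so the contrast of these organs and the array set cannot be told apart without the parental arrays.

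Most S100 genes lie together on chromosome 1, and 17 of the cluster had probe sets here. In map order they are S100A10, S100A11, S100A9, S100A12, S100A8, S100A7A, S100A7L2, S100A7, S100A6, S100A5, S100A4, S100A3, S100A2, S100A16, S100A14, S100A13 and S100A1. Of the 8 other S100-related genes examined (7 of the cluster and S100PBP, which encodes an S100P-binding protein), 1 rose in liver derivatives (S100A3), and 3 rose (S100A3, S100A12 and S100A5) and 1 fell (S100A1) in lung derivatives, against 7.83% and 30.1% of all genes called. After set adjustment 1 was called in liver derivatives (S100A3) and 0 in lung derivatives by limma, where S100A12 had an unadjusted p under 0.05. Their median difference was 0.14 in liver derivatives and 0.19 in lung derivatives. Near-identical sequence makes the separate values of S100A7, S100A7A and S100A7L2 uncertain.

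S100A3, a zinc- and calcium-binding protein of the hair cuticle and the direct neighbour of S100A4 and S100A2, had log2 levels of 9.15, 9.0 and 8.86 in liver derivatives and of 9.02, 8.73 and 9.28 in lung derivatives, against 8.36, 8.47, 8.16 and 8.76 in parental cells. All liver arrays lay above all parental arrays, and lung array 2 lay just below parental array 4. It rose by 0.57 in liver derivatives (SE 0.15, CI 0.24 to 0.90, adjusted p = 0.0417) and by 0.57 in lung derivatives (SE 0.15, CI 0.24 to 0.90, adjusted p = 0.0176). Set-adjusted, the liver difference was 0.67 (adjusted p = 0.0110) and the lung difference 0.25 (adjusted p = 0.452). The liver call was lost without parental array 1, 2 or 3, any liver array or lung array 1 (adjusted p = 0.0621 to 0.186), and the lung call without lung array 1 (0.0541) or lung array 3 (0.0619). By the median of its probe sets the liver difference was 0.44 (adjusted p = 0.105). Its brightest probe set, 7920279, read 11.43, 11.29 and 11.06 in liver derivatives and 10.89, 10.78 and 11.43 in lung derivatives, against 10.32, 10.31, 10.15 and 10.53 in parental cells, differences of 0.93 (adjusted p = 0.0252) and 0.71 (adjusted p = 0.0313).

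**Figure D4:**
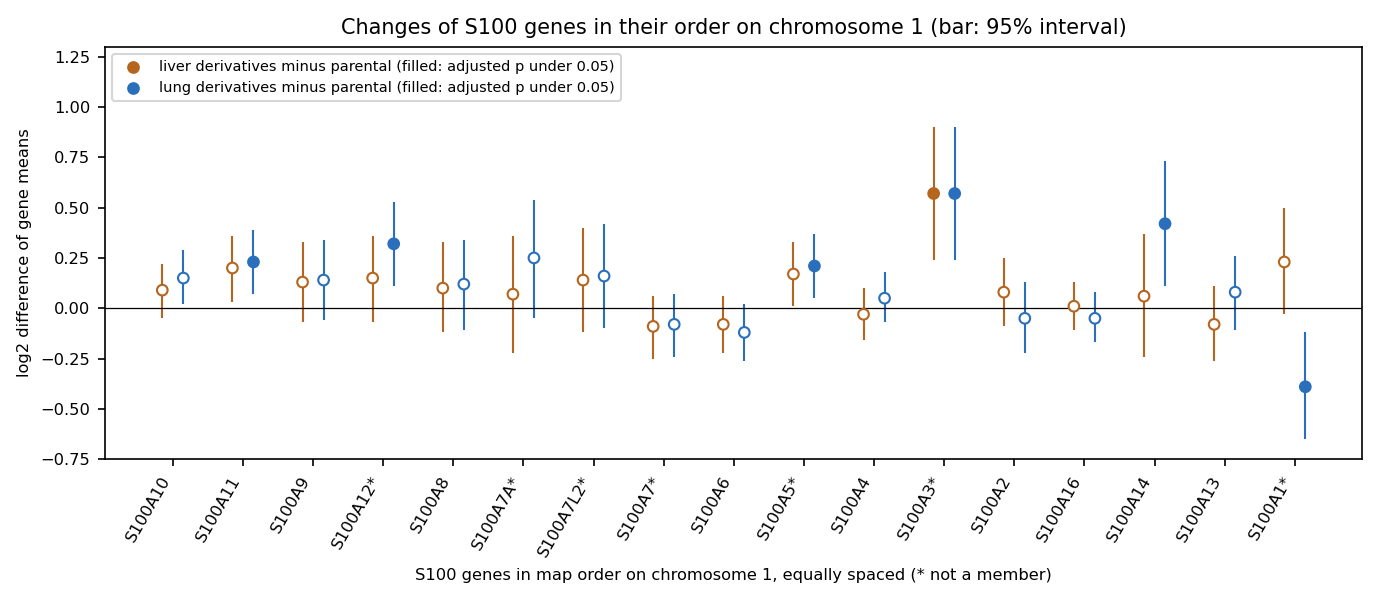
Differences of gene means from parental cells on the log2 scale for the 17 cluster genes in map order along chromosome 1, equally spaced, with liver derivatives left of lung derivatives for each gene, 95% intervals as bars, filled points where the limma adjusted p is under 0.05, and asterisks on genes that are not among the 10 members. S100A3 has both points at 0.57, while its neighbours S100A4 and S100A2 have points between -0.05 and 0.08.

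The other lung calls of the cluster depended on single arrays. S100A12, a granulocyte member, read 5.96 ± 0.19 in lung derivatives, against 5.64 ± 0.13 in parental cells (0.32, adjusted p = 0.0292), a call lost without parental array 1 or 2 or lung array 3 (adjusted p = 0.0749 to 0.102). S100A5, a calcium binder of olfactory neurons, read 7.97 ± 0.06 in lung derivatives, against 7.76 ± 0.11 in parental cells (0.21, adjusted p = 0.0472). That call was lost without any 1 array other than parental array 4 (adjusted p = 0.0528 to 0.125), and the difference was -0.03 by the brightest probe set. S100A1, which regulates calcium handling in heart muscle, read 6.77 ± 0.11 in lung derivatives, against 7.16 ± 0.20 in parental cells (-0.39, adjusted p = 0.0357), and against 7.39 ± 0.22 in liver derivatives (-0.62, adjusted p = 0.0156; SD, n = 3 for derivatives and 4 for parental cells). The S100A1 lung call against parental cells was lost without parental array 1, 2 or 3 or any lung array (adjusted p = 0.0528 to 0.0960) and after median centring (0.0557). The call against liver derivatives was lost without liver array 2 (0.0691), and set-adjusted that difference was -0.24 (adjusted p = 0.704). The S100A1 difference of lung from liver derivatives was -0.28 by the brightest probe set (adjusted p = 0.149) and -0.75 by the median (adjusted p = 0.0236). Of its probe sets only 7905583 was called in that contrast (-1.09, adjusted p = 0.021). With the brightest probe set, or the median of the probe sets, 0 of the 3 lung differences from parental cells were called (adjusted p = 0.0600 to 0.869). After set adjustment, 0 of these lung differences were called by limma (0.33, 0.13 and -0.10 in that order, 1 of them, S100A12, at an unadjusted p under 0.05).

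The upstream sequences of 4 of these genes are shown because S100A11 and S100A14 were the members called by their gene means, and because S100A3 and S100A4 are neighbours of which the first was called and the second was not. Each is the 250 bases before the RefSeq start on the minus strand of GRCh38.p14, 5′ to 3′ along the gene, and capitals mark matches on either strand to the TATA box (letters TATAAA), the AP-1 site (letters TGANTCA) or the GC box (letters GGGCGG), which do not share bases with each other here. The windows are chr1:152037005-152037254 for S100A11, chr1:153616326-153616575 for S100A14, chr1:153549259-153549508 for S100A3 and chr1:153545807-153546056 for S100A4.
S100A11: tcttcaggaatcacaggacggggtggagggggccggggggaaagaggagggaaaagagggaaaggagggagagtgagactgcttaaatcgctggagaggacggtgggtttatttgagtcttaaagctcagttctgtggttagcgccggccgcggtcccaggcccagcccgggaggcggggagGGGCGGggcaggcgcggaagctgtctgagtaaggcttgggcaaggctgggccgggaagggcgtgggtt
S100A14: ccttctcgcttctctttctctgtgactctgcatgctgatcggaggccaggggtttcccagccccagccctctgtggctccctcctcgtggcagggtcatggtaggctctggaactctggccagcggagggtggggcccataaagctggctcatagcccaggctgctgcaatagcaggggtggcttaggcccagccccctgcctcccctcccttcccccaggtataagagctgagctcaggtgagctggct
S100A3: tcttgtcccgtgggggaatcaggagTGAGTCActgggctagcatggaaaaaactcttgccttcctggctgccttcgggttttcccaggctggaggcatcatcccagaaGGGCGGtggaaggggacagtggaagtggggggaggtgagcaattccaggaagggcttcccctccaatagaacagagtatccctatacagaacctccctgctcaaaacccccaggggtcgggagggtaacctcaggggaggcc
S100A4: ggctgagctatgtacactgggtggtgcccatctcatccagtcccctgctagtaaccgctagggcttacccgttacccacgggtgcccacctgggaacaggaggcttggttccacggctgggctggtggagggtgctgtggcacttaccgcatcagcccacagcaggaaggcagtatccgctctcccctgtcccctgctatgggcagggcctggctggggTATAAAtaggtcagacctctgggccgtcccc
The TATA box was found in S100A4, the AP-1 site in S100A3, and the GC box in S100A11 and S100A3, while the S100A14 window held none of the 3. Of 35116 upstream windows of the same length in the RefSeq promoter table, 10.7% held the TATA box, 6.57% the AP-1 site and 42.6% the GC box. A match is a description of the letters, and its absence says only that they are not in that window.

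The fused-type S100 genes of the same chromosome, which encode large proteins of the skin barrier, had 0 of 7 called in liver derivatives by limma (TCHH had an unadjusted p under 0.05) and 1 of 7 in lung derivatives, against 7.83% and 30.1% of all genes. FLG, the filaggrin gene, differed by 0.06 in liver derivatives and fell in lung derivatives (-0.23, adjusted p = 0.0213, set-adjusted -0.22 with an adjusted p of 0.185). FLG read 6.53 ± 0.03 in lung derivatives, against 6.76 ± 0.07 in parental cells (SD, n = 3 and 4). The list's median difference was 0.06 in liver derivatives and 0.03 in lung derivatives.

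Calls were also made among genes of proteins that bind S100 members or act with them. Of 16 measured, 2 rose and 2 fell in liver derivatives. PLAU, which encodes the plasminogen activator urokinase, read 6.90 ± 0.16 in liver derivatives, against 7.70 ± 0.14 in parental cells (-0.80, SE 0.12, adjusted p = 0.00163). The annexin gene ANXA9 fell (-0.26, adjusted p = 0.0362), while CAPN1, which encodes the calcium-dependent protease calpain 1, rose by 0.33 (adjusted p = 0.0149) and PPFIBP1, which encodes the S100A4 partner liprin beta 1, rose by 0.37 (adjusted p = 0.0396). All 4 had every liver array beyond every parental array, against 20.2% of all genes. These 4 were already called on the same arrays, so this adds no support.

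In lung derivatives 2 of the 16 rose and 8 fell, with a list median of -0.21, against -0.01 over all genes. The p53 regulators MDM4 and MDM2, whose proteins several S100 members bind, had the smallest adjusted p-values. MDM4 read 8.69 ± 0.04 in lung derivatives, against 9.19 ± 0.07 in parental cells (-0.50, adjusted p = 0.00198), and MDM2 read 9.50 ± 0.04 in lung derivatives, against 9.92 ± 0.15 in parental cells (-0.43, adjusted p = 0.00368). The acid-sensing channel gene ASIC1, whose product S100A10 carries to the cell surface, fell (-0.61, adjusted p = 0.00450), as did CAPN2, which encodes the large subunit of calpain 2 (-0.25, adjusted p = 0.00920). After set adjustment, 1 of the 16 was called in lung derivatives, MDM4 (-0.58, adjusted p = 0.0211), and 2 rose and 3 fell in liver derivatives. The partners' counts of 4 and 10 of 16 stand against 7.83% and 30.1% of all genes, and whether the list differs from the members was not tested.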

How the data were processed

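RNA of 10 samples of SW620 cells and their derivatives was hybridised to 1-colour Affymetrix HG1.0ST arrays, as the labels' protocols state. The authors deposited 1 log2 expression value per row and array, computed by RMA in oligo per the submitters' processing notes. The versions, the summary level and the genome build are not given in the sources used here. RMA is meant to equalise the arrays' distributions, so a change in total RNA per cell cannot be seen. In this table array medians still ran from 8.52 to 8.55 in lung derivatives. They ran from 8.57 to 8.59 in liver derivatives and from 8.56 to 8.6 in parental cells. The number of arrays limits the precision. The table's 65535 rows are a spreadsheet's row limit, so it may hold part of the array, and rows were taken as probe sets. Shares of all probe sets or all genes are shares of those in this table.

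Gene names came from the platform annotation, updated through a RefSeq gene table of GRCh38.p14: 56949 rows list a gene, 54806 of them 1 symbol and 2143 several, and 8586 list none. Of 4727 symbols, 4102 were current and 601 were updated. Rows with a listed gene were fitted with limma 3.58.1 under R 4.3.3, all 10 arrays in 1 model of 3 group means, and tested two-sided after eBayes, with p-values adjusted by the Benjamini-Hochberg method over 56949 rows or, on the mean of each gene's rows, over 4713 genes. The code was tested on simulated data. Adjusted p-values in the text come from these fits.

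Alternatives were quantile normalization, median centring, leaving out the dimmest 25% of rows, all rows, only the groups compared, trend and robust eBayes, adjustment for the array set, the replicate number as a block, another summary per gene, and each array left out in turn. The members, gene lists and array sets were chosen with earlier results of these data known. Named genes are the 10 members, up to 4 called genes per list and contrast with the smallest adjusted p, and the 3 genes most like each called member; LYZ and PTPRC of the leukocyte list, the probe sets and the marker keratins were named after their values were seen.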

Additional observations from a re-analysis of the deposited data

Results flagged for a closer look

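Among 55 probe sets and 10 gene means, 2 probe sets had 1 parental array far from the other 3 by Dixon's test for an outlying value, which chance alone gives in about 1 of 20 groups. In S100A14 probe set 7920301 the lung arrays read 8.65, 8.67 and 8.62, while parental array 4 read 8.61, against 8.32, 8.31 and 8.31 on parental arrays 1 to 3, a gap of 0.98 of the parental range. In S100A11 probe set 7920134 the lung arrays read 11.35, 11.41 and 11.43, while parental array 4 read 10.88, against 11.41, 11.35 and 11.33 on the other parental arrays, a gap of 0.858 of their range.

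The liver and lung differences from parental cells were unequal in 4 probe sets by the limma test of lung minus liver. These were S100A9 probe set 7905572 (0.60), S100A10 probe set 7920127 (0.58), S100A2 probe set 7920286 (-0.52) and S100A16 probe set 7920296 (-0.46). The first pair read higher in lung derivatives and the second pair lower. After set adjustment the same values were 0.10, 0.07, -0.71 and -0.19, with adjusted p-values of 0.915, 0.928, 0.343 and 0.787.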

How the results depend on the processing

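The counts of called member probe sets and genes depended on single arrays and on how the spread was modelled. The shares of all probe sets or genes called are not given for these settings, apart from probe sets after set adjustment against parental cells. A change in a count may therefore be shared by all probe sets or genes. In liver derivatives against parental cells, 0 genes were called under all 9 other settings run and with each array left out, and 0 probe sets except 1 without the dimmest rows (47 of 55 member rows left) and 1 with trend and robust eBayes. In lung derivatives against parental cells, where 3 probe sets were called, there were 5 without the dim rows, 1 when the fit left out the liver arrays, 8 with trend and robust eBayes and 0 after set adjustment, and leaving out each array gave 1 to 11. The 2 called genes became 0 when the fit left out the liver arrays, 0 after set adjustment and 1 with the median of rows, and 0 to 3 without each array (0 without parental 1, 2 or 3, liver 2 or 3, or lung 1 or 3, and 1 without liver 1). Between lung and liver derivatives the 4 probe sets became 9 when the fit left out the parental arrays, 9 with trend and robust eBayes and 0 after set adjustment, and 0 to 11 without each array, while the 0 genes became 1 without parental arrays, 1 with the brightest row and 2 with the median of rows, and 0 to 1 without each array (1 without parental 4). Same-numbered arrays did not deviate together (correlations of -0.078 to 0.03 over 9 pairs). With the replicate number as a block 7 probe sets and 1 gene were called in lung derivatives, 7 probe sets and 0 genes between lung and liver derivatives, and 0 in liver derivatives. Only a parental array has the number 4, so the block also takes parental array 4 out of the differences. The sign of a member gene's difference turned in 42 of 570 values from other settings, in 21 of the 30 differences. Of these, 40 were called neither here nor in the report and lay between -0.33 and 0.23 (adjusted p from 0.0528 upwards). The other 2 were called: the S100A4 lung difference was -0.24 by its brightest row (adjusted p = 0.0482) and 0.05 by the mean, and the S100A6 difference of lung minus liver was 0.37 by the median of its rows (adjusted p = 0.032) and -0.04 by the mean. The causes were not tested, apart from fewer rows or arrays where the setting itself removes them. The number of arrays and, for S100A8 and dim probe sets of S100A9 and S100A13, dim signal limit what could be called.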
